A study of Rattus norvegicus with 8 samples.

Results

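Late-numbered miRNAs are here all rat miRNAs on the array whose name carries a number of 3000 or above, such as miR-3562. There were 102 of them among 719 rat miRNAs, and the other 617 were let-7 members or carried a lower number. Membership follows from the name alone, but the number 3000 was chosen with earlier results of these data known. The cells were C6, a line grown from a rat glial tumour. Their total RNA, 100 ng per array, was labelled with the dye Cy3 and read on Agilent miRNA arrays of 1 colour. The study asks how miRNA levels differ between untreated C6 cells and cells given antipsychotic drugs. One group was untreated, and the others had haloperidol at 2 µg/ml, risperidone at 4 µg/ml or clozapine at 25 µg/ml added to the medium each day for 5 days. Haloperidol is a first-generation antipsychotic that blocks dopamine D2 receptors, and risperidone and clozapine are second-generation drugs. Each group had 2 arrays, 8 in all, which the study's design describes as biological repeats. All groups are the same tumour line in culture, with no neurons or other brain cells present by design.

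MicroRNAs are short RNAs cut from a hairpin precursor by the nucleases Drosha and Dicer, and 1 arm of the hairpin is usually the one loaded into Argonaute. The loaded strand finds target mRNAs mainly through its seed, the bases near its 5′ end. The number in a miRNA's name follows the order of entry into the miRNA registry, so most abundant and conserved miRNAs carry low numbers. High numbers went mostly to RNAs first seen by deep sequencing, and some of these lie on the opposite strand of an older miRNA hairpin.

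Mature sequences for 91 of the 102 miRNAs were found by name in RefSeq (build GRCr8), including all 13 that were detected on any array. The following 8 are shown because the results turn on them. The first 5 were the ones detected on all 8 arrays, and the other 3 join miR-3562 and miR-3068-3p as the 5 with an unadjusted limma p under 0.05 for clozapine against control. Each is written 5′ to 3′ with its seed, bases 2 to 8, in capitals.
miR-6216: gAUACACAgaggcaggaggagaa
miR-3473: uCUAGGGCuggagagauggcua
miR-3562: uUGGGGCAguggcuggauggga
miR-3593-3p: cUUCAACCuuaagggggccuca
miR-3068-3p: gGUGAAUUgcaguacuccaaca
miR-3561-5p: aCUGUGUCaauccaggguaga
miR-3560: cAAAUCCUugcccgggugcauu
miR-3546: aUAACCCGggccaaaagcucac
No 2 of the 91 matched miRNAs had the same seed. Only 3 had the seed of a lower-numbered miRNA on the array: miR-3065-5p (as miR-7a-1-3p), miR-3573-5p (as miR-423-5p) and miR-3596d (as the minor arms let-7a-1-3p, let-7b-3p, let-7f-1-3p and miR-98-3p). None of these 3 was detected on any array, so each detected late-numbered miRNA had a seed of its own among the 641 array miRNAs matched to RefSeq.

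The late-numbered miRNAs were detected less often than the others on these arrays, where a miRNA counts as detected by the scanner software's own call in the deposited gene-level files. On at least 1 array 13 of 102 were detected (12.7%), against 250 of 617 lower-numbered miRNAs (40.5%). On all 8 arrays it was 5 of 102 (4.90%) against 180 of 617 (29.2%). These shares describe 1 cell line, and no test was made on them because miRNAs of an array are not replicates. The share was lower in later bands, with 1 exception. It was 55.4% for let-7 and numbers below 200, 32.1% from there to below 500, 24.5% from 500 to below 1000 and 44.4% for the 18 miRNAs from 1000 to below 3000. From 3000 to below 3500 it was 16.7% of 12 miRNAs, and at 3500 or more it was 12.2% of 90.

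**Figure D1:**
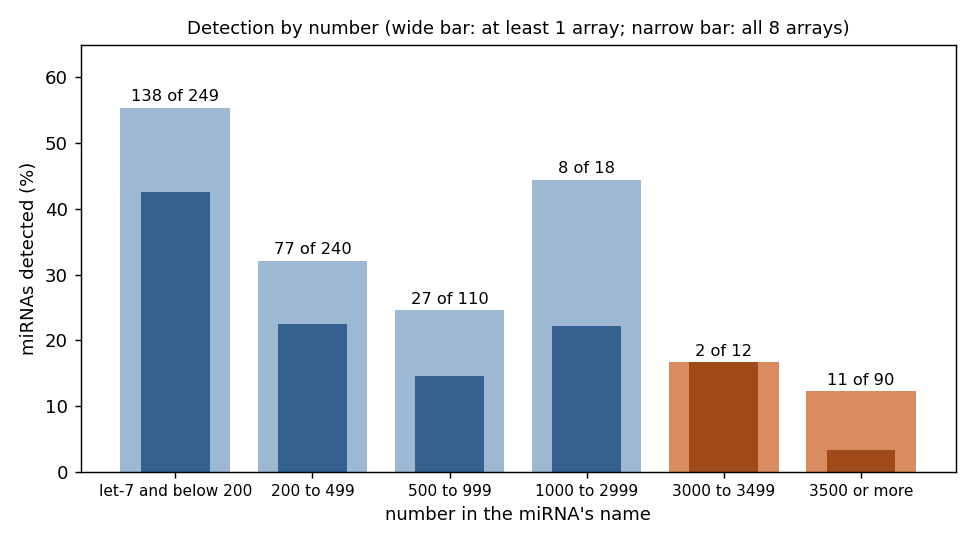
Percent of miRNAs detected (vertical axis) in 6 bands of the number in the name (horizontal axis), with wide bars for at least 1 array and narrow bars for all 8 arrays. Both bands from 3000 upward (orange) lie below every lower band (blue) for detection on at least 1 array, at 16.7% and 12.2%. The counts stand above the bars, and the 2 bars from 1000 to below 3500 rest on 18 and 12 miRNAs.

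Array by array, the share of late-numbered miRNAs detected was 11.8% to 12.7% on the 4 arrays of replicate 1 and on control and haloperidol replicate 2. It was 7.84% (8 of 102) on risperidone replicate 2 and 5.88% (6 of 102) on clozapine replicate 2. The lower-numbered miRNAs moved with them, at 29.98% and 31.9% on those 2 arrays against 35.8% to 39.1% on the others. The same 2 arrays were the dimmest: the 75th percentile of the probes above background, by which each array was scaled, was 388 and 689 against 796 to 1480 on the others. Probes above background made up 17.7% and 18.9% of all probes there, against 21.4% to 25.9%. In total RNA, fewer cells making a miRNA and less of it per cell cannot be told apart. The 5 glial tumour markers checked were detected on all 8 arrays, from miR-21-5p at a mean log2 level of 7.23 to miR-221-3p at 2.999. The neuronal miR-124-3p, the epithelial miR-200c-3p and miR-141-3p and the hepatocyte miR-122-5p were detected on none. The oligodendrocyte marker miR-338-3p was detected on all 8, at a mean of -0.12 (-1.31 to 0.53). The other oligodendrocyte marker of the list, miR-219a-5p, was not on the array under that name. An entry named miR-219-5p, without the letter, was on it and was tested. Its mean log2 levels were -4.33 in control, -3.50 under haloperidol, -3.74 under risperidone and -4.23 under clozapine. Of the leukocyte, erythrocyte and muscle markers, miR-142-3p was detected on 3 arrays, miR-223-3p on 4, miR-451-5p on 2 and miR-206-3p on 5. None of the arrays detected miR-142-5p, miR-144-3p, miR-1-3p or miR-133a-3p. Despite its calls, miR-142-3p was at the floor, the lowest value used, on all 8 arrays.

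Where a late-numbered hairpin had both arms on the array, at most 1 arm was detected. Both arms of 16 late-numbered hairpins were present, 6 hairpins had an arm detected, and 0 had both. Only 3 of the 16 5p arms and 3 of the 16 3p arms were detected. With so few, 0 hairpins with both cannot be set apart from that low share. The same count was not made for lower-numbered hairpins. The detected arm was the 5p arm for miR-3559, miR-3561 and miR-3584 and the 3p arm for miR-3068, miR-3573 and miR-3593. The arms of miR-3561 are shown because they share the 12 bases AUCCAGGGUAGA, and still the array read them differently.
miR-3561-5p: aCUGUGUCaauccaggguaga
miR-3561-3p: uAUCCAGGguagacacucaga
The 5p arm was detected on 6 arrays and the 3p arm on 0. Of the 70 late-numbered miRNAs with no arm in their name, 7 were detected.

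Levels are given as log2 of the summed probe signal divided by the array's 75th percentile, so that 0 is that percentile. Values below -6.22 were set to that floor. Probes differ in brightness per molecule, so an order of signals is not an order of abundance. Among miRNAs detected on all 8 arrays, the median mean level was -3.83 for the 5 late-numbered ones and -1.94 for the 180 others. Ranked by mean signal among the 263 miRNAs detected anywhere, miR-6216 stood at 58 and miR-3473 at 69. The other 11 stood between 152 and 251.

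miR-6216 (chr3:65165595-65165617, minus strand, GRCr8, in no protein-coding gene) gave the strongest signal of the 102. Its log2 levels for replicates 1 and 2 were 0.03 and -0.56 untreated, 0.20 and -0.37 under haloperidol, 0.30 and -0.01 under risperidone, and 0.25 and -0.61 under clozapine. The array of replicate 1 was the higher one in each group, and the 4 groups overlapped. One of its 2 probes gave 88.6% of the signal.

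miR-3473 (chr13:42051730-42051751, plus strand, within the span of Zranb3, a DNA-remodelling enzyme of the replication stress response) came next. It measured -1.21 and -0.59 in control, -0.95 and -0.71 under haloperidol, -0.62 and 0.29 under risperidone, and -0.73 and -0.86 under clozapine. Risperidone replicate 2 was the highest array and control replicate 1 the lowest. Its letters closely follow the start of the rodent B2 element, a short interspersed repeat with many genomic copies. A run of 15 consecutive bases of the mature miRNA, on either strand, occurred in 111 of 33469 RefSeq promoter windows of 300 bases (0.332%). The next highest count among the 641 matched array miRNAs was 14 windows, for miR-466b-5p, and 529 miRNAs had no such run in any window. Among the other 12 detected late-numbered miRNAs the highest count was 4, and 8 had none. The brighter of the 2 probes of miR-3473 gave 87.1% of its signal. Whether other RNAs carrying the repeat add to the signal of these probes was not tested.

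miR-3562 (chr10:105848002-105848023, minus strand, within the span of Cep131, a centriolar satellite protein) was the brightest of the remainder. Control arrays gave -3.05 and -3.52, haloperidol -3.73 and -3.97, risperidone -3.69 and -3.84, and clozapine -3.90 and -4.94. Both control arrays were above all 6 drug arrays. Its 2 probes each gave about the same signal, with 50.1% from the brighter one.

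miR-3593-3p (chr6:78987770-78987791, minus strand, in no protein-coding gene) was at -4.92 and -3.90 in control. It was at -4.20 and -3.91 under haloperidol, -3.88 and -2.90 under risperidone and -3.96 and -4.33 under clozapine. Risperidone was the one group with both arrays above both control arrays, and the nearest of these, -3.88 against -3.90, were almost level. Control replicate 1 was the lowest array by a wide margin.

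miR-3068-3p (chr6:112811880-112811901, minus strand, within the span of Alkbh1, a nucleic acid demethylase) was the fifth miRNA detected everywhere. The control arrays were at -3.48 and -4.01, those of haloperidol at -4.31 and -4.39, of risperidone at -4.32 and -4.67, and of clozapine at -4.32 and -4.99. Both control arrays were again the highest, and clozapine replicate 2 was the lowest. Its 3 probes had most spots above background on 0, 3 and 8 arrays, and the brightest gave 74.0% of the signal of miR-3068-3p.

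The remaining tested miRNAs were detected on 6 or 7 arrays, and the arrays without a call were risperidone replicate 2, clozapine replicate 2 or both. miR-3561-5p (chr7:22195216-22195236, minus strand, in no protein-coding gene) was at -4.28 and -4.88 in control, -5.02 and -5.45 under haloperidol, -5.16 and -6.02 under risperidone, and -5.55 and the floor under clozapine. Both control arrays were above all drug arrays, and the second array of risperidone and of clozapine had no detection call. miR-3560 (chrX:17927239-17927260, minus strand, within the span of the chloride transporter gene Clcn5) was close to it on every array, at -4.30 and -4.93 in control, -5.19 and -5.62 under haloperidol, -5.16 and -6.02 under risperidone, and -5.39 and the floor under clozapine. Again no drug array reached the lower control array. The probes of miR-3561-5p had most spots above background on 4 and 4 arrays, and those of miR-3560 on 5 and 4.

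miR-3546 (chr15:32395601-32395622, plus strand, within the span of Myh6, the cardiac myosin heavy chain gene) was near the detection limit throughout. It was at -5.40 and -5.33 in control, -5.81 and -5.66 under haloperidol, -5.49 and -5.88 under risperidone, and -6.01 and the floor, without a call, under clozapine. Of its 2 probes, 1 had most spots above background on 7 arrays and the other on 0, so the value rests on 1 probe. The floor hides spread on clozapine replicate 2 for this miRNA and for miR-3560, miR-3561-5p and miR-3573-3p, and their standard errors may be too low.

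Of the last 4 tested, miR-3584-5p (chr1:256727582-256727599, minus strand, within Itprip) ranged from -5.91 on clozapine replicate 2, without a call, to -3.93 on risperidone replicate 2. miR-3559-5p (chrX:73660193-73660214, minus strand, within Zdhhc15) ranged from -5.45 on risperidone replicate 2, without a call, to -4.23 on control replicate 2. The X-linked miR-3573-3p (chrX:68299322-68299344, plus strand, within the ephrin gene Efnb1) ranged from the floor on clozapine replicate 2 to -4.98 on risperidone replicate 2. miR-6328 (chr20:2890159-2890179, plus strand, within Ppp1r18) ranged from -6.08 to -4.95, and its 2 probes had most spots above background on 0 and 1 arrays. None of these 4 had both control arrays above all 6 drug arrays. How many of all tested miRNAs had that order was not counted, so it is not shown to be particular to late-numbered ones. miR-6215 (chr5:157133953-157133972, minus strand, within Iffo2) was detected on haloperidol replicate 1 and risperidone replicate 1 alone and was not tested. In all, 10 of the 13 detected miRNAs lay within the span of a protein-coding gene, strand not considered.

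**Figure D2:**
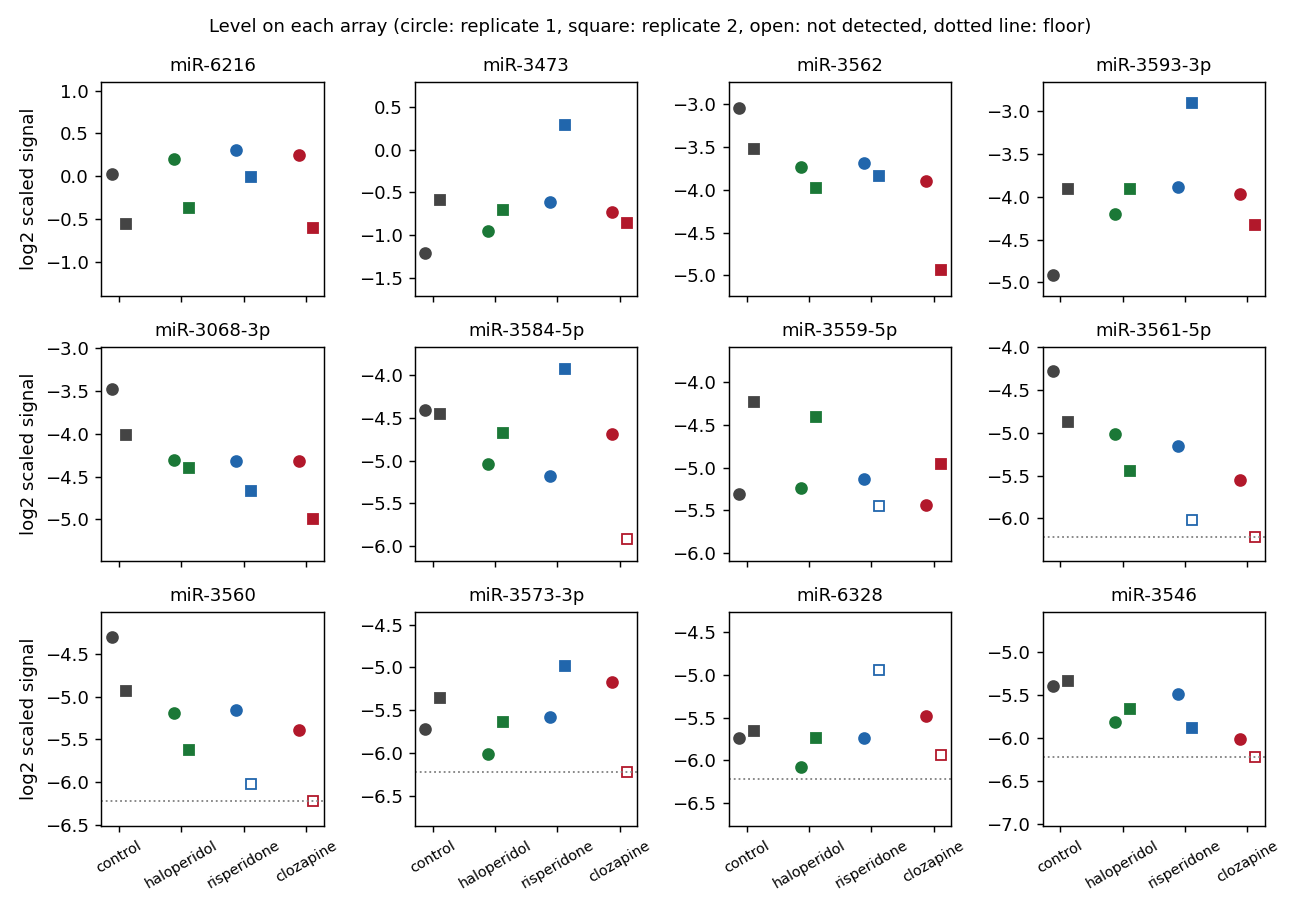
Log2 scaled signal (vertical axis, 0 is the array's 75th percentile) of the 12 tested late-numbered miRNAs on each array, by group (horizontal axis). Circles are replicate 1, squares replicate 2, open symbols arrays without a detection call, and the dotted line the floor. Both control arrays lie above all drug arrays for miR-3562, miR-3068-3p, miR-3561-5p, miR-3560 and miR-3546, and for miR-3561-5p the control arrays are at -4.28 and -4.88. How many of all tested miRNAs share this order was not counted. Both arrays of a single drug lay below both control arrays for 32.1% (haloperidol), 32.9% (risperidone) and 33.7% (clozapine) of all tested.

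A miRNA was tested if some group had it detected on both arrays, and 12 late-numbered miRNAs of 243 in all were. In limma fitted over the 8 arrays, with Benjamini-Hochberg adjustment over the 243, 0 of the 12 passed an adjusted p of 0.05 in any of the 3 drug comparisons with control or the 3 between drugs, and neither did any of the 243 (0%). The moderated F test over all 4 groups called 0 of the 12, and the smallest adjusted p from limma with Benjamini-Hochberg was 0.799, shared by 5 of them. miR-3546 was the 1 of the 12 with an unadjusted F-test p under 0.05, against 3.29% of all tested. With 2 arrays a side, the smallest p an exact permutation test allows is 0.333. The 3 comparisons with control share the control arrays, so their directions are not independent of each other.

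Clozapine against control gave the lowest values. At an unadjusted limma p under 0.05, 5 of the 12 were below control and 0 above, against 14.8% of all tested miRNAs in either direction and 13.6% in the lower one. All 12 were detected on both control arrays, but only 6 on both clozapine arrays. Their array medians, -5.45 to -4.34, lay nearer the floor than those of all tested miRNAs, -2.96 to -2.57. The shares therefore compare miRNAs at unlike levels. miR-3561-5p was 2.48-fold lower, at -5.89 ± 0.47 against -4.58 ± 0.42 in control (SD, n = 2 per group), a log2 difference of -1.31 with a standard error of 0.41 and an adjusted limma p of 0.326. Within the first slide row, which holds replicate 1 of every group, the difference was -1.28, and within the second it was -1.34. The second value is a limit, since miR-3561-5p was undetected and set to the floor on clozapine replicate 2, and the fold depends on the floor too: with the floor at the 1st percentile of detected values the log2 difference was -2.03 (adjusted limma p 0.399). With the slide row as a replicate block its adjusted limma p was 0.0481, the single call among the 12, where 2 of all 243 were called. This call rests on that floored value. miR-3560 was 2.28-fold lower (log2 -1.19, standard error 0.44, adjusted limma p 0.333), with within-row values of -1.09 and, at the floor, -1.29. miR-3562 was 2.20-fold lower (log2 -1.14, standard error 0.37), with within-row values of -0.86 and -1.42.

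miR-3068-3p was 1.88-fold lower under clozapine (log2 -0.91, standard error 0.30), at -0.84 and -0.98 within the rows. miR-3546 was 1.68-fold lower (log2 -0.75, standard error 0.18), at -0.61 and, at the floor, -0.89 within the rows, and had the smallest adjusted limma p of the 12 (0.270). With the lower floor, miR-3560 was at -2.01 and miR-3546 at -1.59. The direction of all 5 held with the arrays scaled otherwise or not at all, and turned with normexp background correction, where the same differences were 0.86 for miR-3561-5p, 0.87 for miR-3560, 0.55 for miR-3562, 0.86 for miR-3068-3p and 1.01 for miR-3546. Without the 2 dimmest arrays they were -0.97, -0.77, -0.62, -0.57 and -0.64 in that order. Clozapine replicate 2, the lowest array for all 5, was also one of those 2 dim arrays. The normexp setting added an offset of 50 to every spot before scaling. Every probe of these 5 had a median background-subtracted signal below that offset, at most 36.7. How far the offset makes the turn was not tested. At the other end, miR-3593-3p was at 0.26 (standard error 0.46), miR-3473 at 0.10 and miR-6216 at 0.08, all within their errors.

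Over the 12, 9 were below control with clozapine, and 66.3% of all tested miRNAs were. Their median log2 difference was -0.59 against -0.17 for all tested. The groups' arrays did not overlap for 6 of the 12, all lower (the 5 above and miR-3584-5p at -0.87), and for 39.1% of all tested, 33.7% in the lower direction. With normexp the median of all tested miRNAs moved to 0.76 and that of the 12 to 0.88. Quantile normalization brought the median of the 12 to -0.17, with 6 below control and 6 above. The cause of these shifts was not tested.

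Under risperidone the 12 went both ways, with 7 below and 5 above control, against 60.5% of all tested below. None passed an unadjusted limma p of 0.05, against 8.64% of all tested. miR-3593-3p averaged -3.39 ± 0.69 with the drug and -4.41 ± 0.72 without (SD, n = 2), which is 2.02-fold higher, a log2 difference of 1.02 with a standard error of 0.46 and an adjusted limma p of 0.454. Its within-row differences were 1.04 and 0.998, and without risperidone replicate 2 and clozapine replicate 2 it was 0.53. miR-3473 was 1.66-fold higher (log2 0.73, standard error 0.36), with within-row values of 0.59 and 0.87. In the other direction stood miR-3561-5p (log2 -1.01, standard error 0.41), miR-3560 (-0.98, 0.44) and miR-3068-3p (-0.75, 0.30). These 3 also turned with normexp, to 0.38, 0.36 and 0.33. The groups' arrays did not overlap for 6 of the 12, 5 lower and 1 higher, against 39.9% of all tested and 32.9% in the lower direction. The median difference was -0.22, against -0.15 for all tested.

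Haloperidol gave the smallest differences of the 3 drugs at the low end. Again 9 of the 12 were below control, against 60.5% of all tested, with a median of -0.33 against -0.15. No late-numbered miRNA passed an unadjusted limma p of 0.05, against 6.58% of all tested. miR-3560 was 1.73-fold lower (log2 -0.79, standard error 0.44, adjusted limma p 0.581), with within-row values of -0.90 and -0.69. miR-3561-5p was at -0.66, miR-3068-3p at -0.61 and miR-3562 at -0.57, with standard errors of 0.41, 0.30 and 0.37. The arrays of the groups did not overlap for 7 of the 12, all lower, against 43.6% of all tested and 32.1% in the lower direction. The 7 were these 4 with miR-3546, miR-3584-5p and miR-6328.

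The means of miR-3560, miR-3561-5p and miR-3068-3p lay lower in the order haloperidol, risperidone, clozapine. The 95% intervals of the steps between drugs included 0 for each of them. For miR-3561-5p, clozapine minus haloperidol was -0.65, with a 95% interval of -1.69 to 0.39. For miR-3562, clozapine minus risperidone was -0.66, with an interval of -1.59 to 0.28. These intervals do not show that the drugs act alike.

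**Figure D3:**
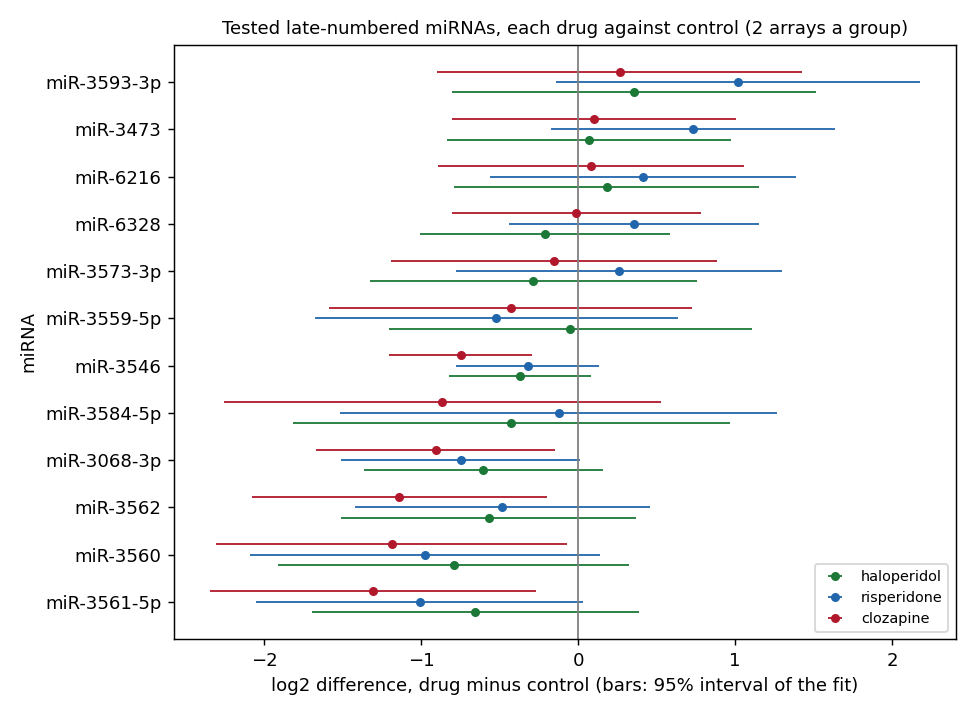
Log2 difference of each drug from control (horizontal axis) for the 12 tested late-numbered miRNAs (vertical axis), with the 95% interval of the limma fit as bars and 2 arrays per group. Only 5 intervals, all of clozapine, lie wholly below 0 (miR-3546, miR-3068-3p, miR-3562, miR-3560 and miR-3561-5p). With normexp background correction and its offset of 50, these 5 differences lie above 0.

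Between drugs, limma with Benjamini-Hochberg adjustment gave an adjusted p of 1 for every late-numbered miRNA. The limma p was under 0.05 without adjustment for 0 of the 12, against 0% of all tested for risperidone minus haloperidol, 1.23% for clozapine minus haloperidol and 1.65% for clozapine minus risperidone. Risperidone minus haloperidol left the arrays apart for 4 of the 12, all higher, against 23% of all tested and 13.6% in the higher direction. These were miR-3473 (log2 0.66), miR-3593-3p (0.66), miR-6328 (0.57) and miR-3573-3p (0.55). Clozapine minus haloperidol left them apart for 2, both lower, against 22.2% (16% in the lower direction): miR-3561-5p (-0.65) and miR-3546 (-0.38). Clozapine minus risperidone left them apart for 4, all lower, against 14.8% (9.47% in the lower direction): miR-3593-3p (-0.75), miR-3562 (-0.66), miR-3473 (-0.63) and miR-3546 (-0.43).

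Position set a further group apart. Of the 91 matched miRNAs, 28 came from 26 hairpins that lie on the opposite strand of a lower-numbered hairpin at the same locus, so that the mature strands of both can be reverse complements. A run of at least 16 complementary bases joined 27 of the 28 to an arm of the older hairpin, and 16 were complementary over their whole length. Of these 28, 2 were detected on at least 1 array (7.14%), against 11 of the 63 other matched miRNAs (17.5%). The pairs below show first 2 undetected opposite strands of miRNAs that were detected on all 8 arrays. The 2 that were detected follow. Capitals mark the bases that pair with the other strand, each sequence being written 5′ to 3′.
miR-3596a: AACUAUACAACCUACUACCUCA
let-7a-5p: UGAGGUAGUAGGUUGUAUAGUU
miR-3556a: CGAUUUCAGAUGGUGCUA
miR-29a-3p: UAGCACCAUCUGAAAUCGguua
miR-3560: CAAAUCCUUGCCCGGGUGCAUU
miR-501-3p: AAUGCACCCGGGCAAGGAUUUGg
miR-3546: AUAACCCGGGCCAAAAGCUCac
miR-208a-5p: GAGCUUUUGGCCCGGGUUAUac
For 26 of the 27 the complementary arm was on the array too. That arm was detected on all 8 arrays in 9 pairs, with mean log2 levels from -5.32 to 4.11. Of the 9 late-numbered partners 0 were detected on any array, against 12.7% of all 102 late-numbered miRNAs. With 9 miRNAs, 0 cannot be set apart from that share, and a missing call does not show that an RNA is absent.

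miR-3596a, opposite let-7a-5p (mean log2 level 3.81), had a summed background-subtracted signal of -6.81 to 9.15 over the 8 arrays, positive on 5. miR-3556a, opposite the brighter miR-29a-3p (4.11), gave -11.0 to -5.83, below background on every array. Signals below background on every array were also found for miR-3587 opposite miR-29b-3p (2.99), miR-3590-5p opposite miR-130a-3p (2.33), miR-3065-5p opposite miR-338-3p (-0.12) and miR-3596d opposite let-7f-5p (3.90). The other 3 late-numbered partners were above 0 on some arrays without a detection call. miR-3596b, opposite let-7d-5p (2.61), was positive on 5 arrays, up to 6.37, miR-3596c, opposite let-7e-5p (1.52), on 2, up to 1.88, and miR-3065-3p, opposite miR-338-5p (-5.32), on 1, up to 1.46. The let-7 family restrains growth by targeting Ras and Hmga2, and miR-29 targets collagen mRNAs.

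**Figure D4:**
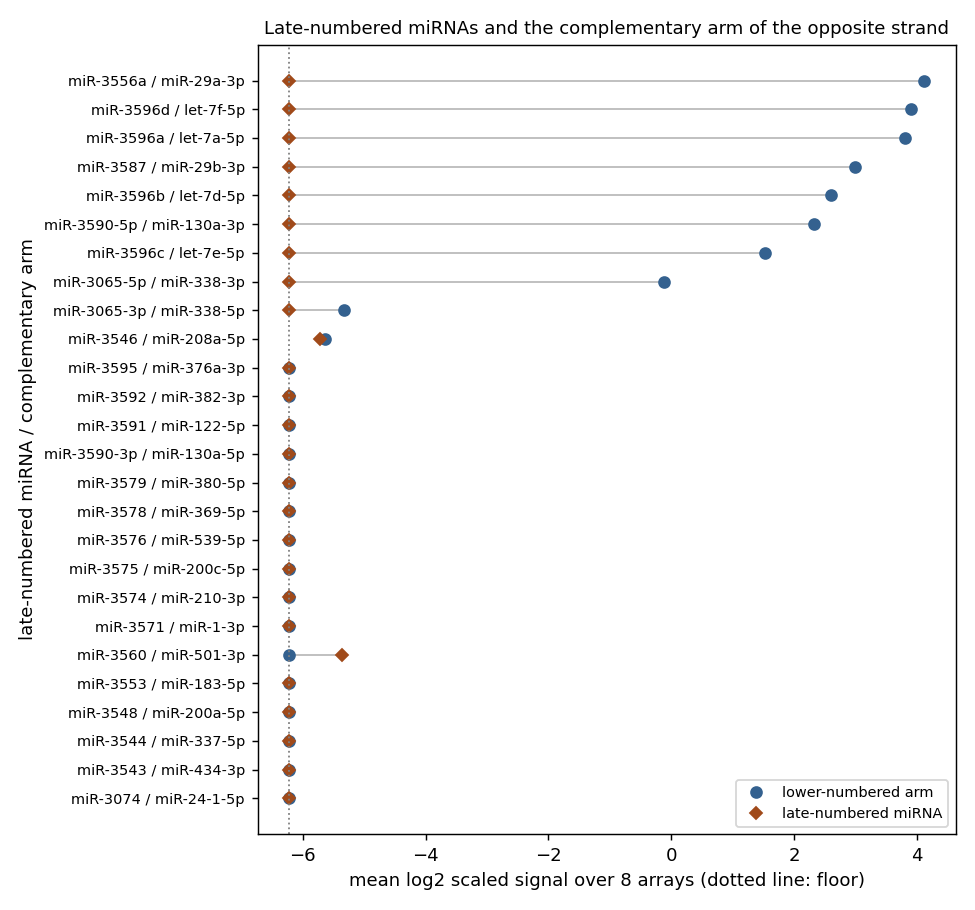
Mean log2 scaled signal over the 8 arrays (horizontal axis) of 26 late-numbered miRNAs (diamonds) and of the complementary arm on the opposite strand (circles), 1 pair per line, with the floor dotted. In the top 9 pairs the older arm was detected on all 8 arrays, up to 4.11 for miR-29a-3p, and the diamond sits at the floor. The diamond is off the floor only for miR-3546 and miR-3560.

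The 2 exceptions differed in what lay opposite. miR-3560 is complementary to miR-501-3p over 22 bases, and miR-501-3p and miR-501-5p were detected on 0 arrays. Other arms of the same opposite-strand group were detected on all 8: miR-532-5p (mean log2 level -2.86), miR-532-3p (-4.62), miR-188-5p (-4.23), miR-362-3p (-3.17) and miR-500-3p (-2.43). The arms miR-188-3p and miR-500-5p were detected on 0. miR-3546 is complementary over 20 bases to miR-208a-5p, an arm of the miR-208a hairpin known from heart muscle. miR-208a-5p was detected on 6 arrays at a mean of -5.65, next to -5.73 for miR-3546, and its clozapine minus control difference was -0.29 (standard error 0.33) against -0.75 for miR-3546. Both are near the floor, and whether 1 strand's RNA reaches the other strand's probe was not tested.

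In base composition the 13 detected late-numbered miRNAs had a median GC share of 54.55%, from 36.4% for miR-3559-5p to 76.2% for miR-6328. The 78 not detected had 50%. Among lower-numbered miRNAs the order was the other way, with 45.45% for the 220 detected and 47.72% for the 330 not detected. A 5′ uridine, which Argonaute favours, began 38.5% of the late-numbered miRNAs both among the detected and among the others. Among lower-numbered miRNAs it began 44.1% of the detected and 30% of the others. The share of late-numbered miRNAs with a 5′ uridine therefore did not differ with detection, and these shares are descriptions with no test.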

How the data were processed

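The values deposited by the authors are intensities, linear and not scaled between arrays, made with Agilent Feature Extraction 10.7.3.1 per the file headers. The spot-level files hold background-subtracted signals and flags of kind other (0 or 1, such as well above background), and the gene-level files hold a summed signal and a detection call, all as deposited. Spots were averaged per probe without outliers and summed over probes. Each array was scaled by the 75th percentile of its signal at 291 probes, those above background on every array. Scaled values under 0.0134 (log2 -6.22, the 5th percentile of detected ones) were set to it as a floor. A miRNA was tested if some group had it detected on both arrays, which held for 243 of 719. limma 3.58.1 in R 4.3.3 was fitted over 8 arrays with 4 residual and 5.43 total degrees of freedom, two-sided, with Benjamini-Hochberg adjustment at 0.05, and was tested on simulated data. All arrays sat on 1 slide, where the row was the replicate number and the column was the group, so column and group cannot be told apart.

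Every late-numbered miRNA detected on an array is named, and each tested one is given by array. Marker miRNAs and the complementary or neighbouring arms of described miRNAs are the lower-numbered ones given values. These lists, and the number 3000, were chosen with earlier results of these data known. Alternatives changed the scaling, background correction, probe summary, filter, floor, arrays fitted, block and detection rule, and dropped the arrays one by one. For normexp the spot medians stood in place of the planned means, which the columns used here do not hold. An offset of 50 was added to every spot in that setting. Leaving out the 2 dimmest arrays together was added after seeing the data. The number of arrays limits the precision. Sequences came from RefSeq GRCr8 by name, a different build from the one the array headers name, and 11 late-numbered miRNAs had no match by name.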

Additional observations from a re-analysis of the deposited data

Results flagged for a closer look

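miR-6215, which entered no comparison, had a detection call on 2 arrays and none on the control arrays. Its deposited gene-level signal was 7.56 on haloperidol replicate 1 and 7.39 on risperidone replicate 1, and 0.1, the value given to undetected miRNAs, on the other 6 arrays. Neither of its 2 probes had most spots above background on any array.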

How the results depend on the processing

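The count of late-numbered miRNAs called by limma at an adjusted p under 0.05 was 0 under every alternative in all 6 comparisons and the F test, except that the replicate block gave 1 for clozapine against control (miR-3561-5p, log2 difference -1.31). The correlation of same-numbered arrays' deviations was positive for all 6 pairs of groups, at 0.16 to 0.71. Same-numbered arrays thus deviated in part together, and the main fit has no term for this. The numbers are known only as slide rows, with 2 per group. With the replicate block, 43, 60 and 66 of 243 had an unadjusted limma p under 0.05 against control for haloperidol, risperidone and clozapine. The main fit gave 16, 21 and 36. Among the 12 late-numbered miRNAs it was 3, 3 and 5 with the block and 0, 0 and 5 in the main fit. At an adjusted limma p under 0.05 the block called 0, 1 and 2 of all 243 in the same order of drugs. miR-3561-5p was among the 2 for clozapine. The count detected on all arrays was 3 with numbers of 3500 or more. Of 699 values of single miRNAs under alternatives, 630 kept their direction and side of the threshold, 68 turned and 1 passed the threshold. Except where stated the cause was not tested.

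The median log2 difference of the late-numbered miRNAs was, with normexp, -0.040, 0.42 and 0.88 against control for haloperidol, risperidone and clozapine, 0.57 for risperidone minus haloperidol, 1.05 for clozapine minus haloperidol and 0.49 for clozapine minus risperidone. With the percentile over all probes the median was -0.21, 0.36 and -0.00067 against control, 0.63 for risperidone minus haloperidol and 0.19 for clozapine minus haloperidol. Without scaling it was -0.071 for haloperidol, -0.61 for risperidone, -0.91 for clozapine, -0.55 for risperidone minus haloperidol and -0.87 for clozapine minus haloperidol. Quantile normalization gave a median of -0.14 for haloperidol, 0.040 for risperidone, -0.17 for clozapine, 0.26 for risperidone minus haloperidol and -0.0032 for clozapine minus haloperidol. The deposited gene-level signal gave -0.32 for risperidone and -0.97 for clozapine, and the brightest probe -0.22 for haloperidol and 0.0022 for risperidone. The 5 miRNAs detected on all 8 arrays had medians of 0.069, 0.41 and 0.083 against control, and with no filter the median was 0 against control and for risperidone minus haloperidol, since 89 of 102 were never detected. Leaving out 1 array moved the median between -0.45 and -0.17 for haloperidol, -0.24 and -0.066 for risperidone, 0.043 and 0.17 for risperidone minus haloperidol, -0.77 and -0.41 for clozapine, -0.50 and 0.062 for clozapine minus haloperidol, and -0.66 and -0.13 for clozapine minus risperidone. Clozapine minus haloperidol turned without clozapine replicate 2, to 0.062 with 8 of 12 above 0.

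Log2 differences from control that turned with normexp were, for risperidone, miR-3068-3p 0.33, miR-3546 0.50, miR-3559-5p 0.43, miR-3560 0.36, miR-3561-5p 0.38, miR-3562 0.22 and miR-3584-5p 0.42, and for clozapine miR-3068-3p 0.86, miR-3546 1.01, miR-3559-5p 1.01, miR-3560 0.87, miR-3561-5p 0.86, miR-3562 0.55, miR-3573-3p 1.09, miR-3584-5p 0.89 and miR-6328 1.11, with miR-3593-3p at -0.035 for haloperidol. With the percentile over all probes they were miR-3559-5p 0.069 for haloperidol, miR-3546 0.27, miR-3559-5p 0.065, miR-3562 0.10 and miR-3584-5p 0.46 for risperidone, and miR-3559-5p 0.22, miR-3573-3p 0.48 and miR-6328 0.64 for clozapine. With quantile normalization they were miR-3559-5p 0.028 for haloperidol, miR-3546 0.084 for risperidone, and miR-3559-5p 0.013, miR-3573-3p 0.091 and miR-6328 0.48 for clozapine. Without scaling they were miR-3559-5p 0.21 and miR-6328 0.044 for haloperidol, miR-3573-3p -0.35, miR-6216 -0.20 and miR-6328 -0.26 for risperidone, and miR-3473 -0.33, miR-3593-3p -0.17 and miR-6216 -0.35 for clozapine. The deposited signal turned risperidone values of miR-3546 (0.19), miR-3573-3p (-0.074) and miR-6328 (-0.51). The brightest probe turned miR-3546 for risperidone (0.21) and miR-3573-3p (0.076) and miR-6328 (0.047) for clozapine. Without the 2 dimmest arrays, miR-3573-3p was -0.035 and miR-6328 -0.040 for risperidone, and 0.37 and 0.22 for clozapine.

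Leaving out 1 array turned these differences within the ranges given: for haloperidol miR-3473 -0.24 to 0.38, miR-3593-3p -0.15 to 0.86, miR-3559-5p -0.59 to 0.49 and miR-6216 -0.11 to 0.48; for risperidone miR-3584-5p -0.75 to 0.50, miR-3559-5p -1.06 to 0.018, miR-3573-3p -0.035 to 0.56 and miR-6328 -0.040 to 0.75; for clozapine miR-3473 -0.21 to 0.42, miR-3593-3p -0.24 to 0.77, miR-6216 -0.35 to 0.51, miR-3559-5p -0.97 to 0.11, miR-3573-3p -0.68 to 0.37 and miR-6328 -0.24 to 0.22. Signals close to background limit miR-3546, miR-3573-3p, miR-6328 and miR-6215, which had the lowest mean levels of the detected late-numbered miRNAs. They also limit miR-3560, whose probes had most spots above background on 5 and 4 arrays, and miR-3561-5p, on 4 and 4.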
